A study of Mus musculus with 74 samples.

Results

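The ERBB receptors and their ligands were examined in lung metastases (Lung mets) and primary mammary tumors (PTs) of mouse models of breast cancer. The set was chosen by gene name and held 10 genes, the receptors Egfr, Erbb2, Erbb3 and Erbb4 and the ligands Areg, Ereg, Hbegf, Btc, Tgfa and Nrg1. The 5 tables used held 38840 different gene identifiers. Because 2 of the tables used BALB/cJ identifiers, 1 gene can count under 2 identifiers in that number. Each table was made for 1 model and gave, for every gene, the authors' normalized mean over the PTs and over the Lung mets. Of 50 possible gene and table combinations, 41 were present, and 7 of the 10 genes were present in all 5 tables. A gene counted as present, with a usable row, when its name occurred once with means above 0 in both tissues.

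The bulk RNA sequencing covered 74 samples. All animals were transgene-positive females with an FVB father. In the Her2 model (6 PTs and 6 Lung mets by the labels), the MMTV promoter, active in mammary epithelium, drives the rat neu gene, the rat counterpart of Erbb2, on the FVB background. In the C3Tag model (7 and 7), the C3(1) promoter drives the SV40 large T antigen, also on FVB. In the PyMT-F1 models, FVB males carrying MMTV-PyMT, the polyoma middle T antigen, were crossed with females of another strain, and the tables named BALB, SEAGN and AKR each belong to a group with 6 PTs and 6 Lung mets by the sample titles. Driver model animals with a single tumor had it removed by surgery and were then aged further, PyMT-F1 animals were aged to the endpoint, all PTs of 1 mouse were pooled, and Lung mets were taken whole. Ages were not given, and the genotype and source labels of many PyMT-F1 samples name another strain or tissue than the title. The table deposited under AKR is called AKR-named here, because the study's supplement lists ratios found in it under the BL6 background, so that its strain was not settled. The Myc model (6 and 6) was not analysed here, since its table held only the authors' comparison columns.

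The tables gave no value of a single sample. The spread between animals is therefore unknown, no difference below was tested, and a ratio of means can rest on 1 animal. Depth per sample is unknown too. The tables were normalized separately, so levels were compared between models only by rank or relative to other genes of the same table. In these bulk samples, fewer cells of a type and less RNA per cell cannot be told apart.

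ERBB receptors are tyrosine kinases of the cell membrane that pair with each other when a ligand of the EGF family binds outside the cell, and the paired kinases then signal through Ras and ERK and through PI3 kinase. Erbb2 has no known ligand of its own and acts as the preferred partner of the others, and Erbb3 has a weak kinase and passes on signals, above all to PI3 kinase, within its pairs. Areg, Tgfa, Hbegf, Btc and Ereg bind Egfr, several of these also bind Erbb4, and Nrg1 binds Erbb3 and Erbb4. The receptor genes lie on chromosomes 11 (Egfr and Erbb2), 10 (Erbb3) and 1 (Erbb4), and the ligand genes on chromosomes 5 (Areg, Ereg and Btc), 18 (Hbegf), 6 (Tgfa) and 8 (Nrg1). The ligands are made as membrane proteins and released by proteases. In the mammary gland Areg and Egfr serve the growth of the ducts, Erbb4 serves milk production, and amplified ERBB2 defines a class of human breast cancers.

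Across all 41 entries, the means of 9 differed by at least 2-fold between Lung met and PT. The 7 that were higher in Lung mets were all ligands, and the 2 that were lower were both Erbb4. Of the 17 receptor entries, 0 were at least 2-fold higher, 2 were at least 2-fold lower, 5 had the higher mean in Lung mets, and the median size of the log2 ratio was 0.18. Of the 24 ligand entries, 7 were at least 2-fold higher, 0 were at least 2-fold lower, 14 had the higher mean in Lung mets, and the median size of the log2 ratio was 0.39. Receptors and ligands also differed in level. By the share of a table's genes with a lower PT mean, the 9 entries past 2-fold lay at 25.6% to 56.2%. Egfr, Erbb2 and Erbb3 lay at 78.1% to 99.9%. The part of level in this split was not tested, and no background of genes of like level was computed. Entries of 1 gene in several tables are not replicates, and the share of receptors and ligands past this fold was not tested.

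By model, 0 of 7 genes passed 2-fold in Her2, 3 of 9 in C3Tag, 0 of 8 in BALB, 2 of 8 in SEAGN and 4 of 9 in AKR-named. The background differed between tables. In Her2, 2.38% of all 18208 genes were at least 2-fold higher in Lung mets and 1.43% at least 2-fold lower. In C3Tag the shares were 7.42% higher and 1.7% lower of 19320 genes. In BALB they were 2.26% higher and 2.4% lower of 17270 genes. In SEAGN they were 2.86% higher and 3.22% lower of 17351 genes. In AKR-named they were 7.31% higher and 1.73% lower of 17829 genes. The 2 tables with the most members past 2-fold were thus those with the most genes past 2-fold in the higher direction. The median size of the log2 ratio over the members against all genes was 0.20 against 0.13 in Her2, 0.34 against 0.23 in C3Tag, 0.20 against 0.17 in BALB, 0.24 against 0.19 in SEAGN and 0.69 against 0.25 in AKR-named.

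**Figure D1:**
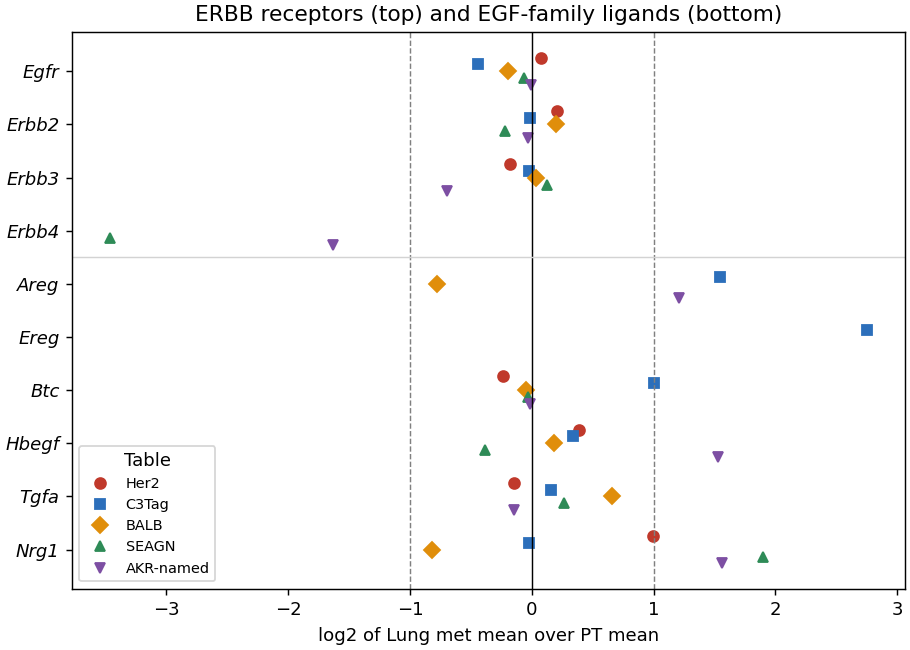
Log2 of the Lung met mean over the PT mean (horizontal axis) for each of the 10 genes in each table that holds it, with receptors above and ligands below the gray line and dashed lines at 2-fold. Egfr, Erbb2 and Erbb3 lie between -0.69 and 0.20, Erbb4 lies at -3.46 and -1.63, and the ligands reach from -0.82 to 2.75.

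Erbb2 was the receptor whose level differed most between models. In Her2 its mean was 99570 in PTs and 114664 in Lung mets, a ratio of 1.15. It was the gene with rank 11 of 18208 in both tissues. In C3Tag the mean was 2981 in PTs and 2947 in Lung mets (ratio 0.989). In BALB it was 651 and 749 (ratio 1.15), and in SEAGN 652 and 558 (ratio 0.857). In AKR-named it was 1655 and 1621 (ratio 0.980). Within each model the means of the 2 tissues thus lay close together, while the rank in PTs placed Her2 apart: the share of the table's genes with a lower PT mean, called the PT percentile here, was 99.9% in Her2, 91.2% in C3Tag, 84.9% in BALB, 86.3% in SEAGN and 78.1% in AKR-named.

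Relative to the median of the 12317 genes found in every table, the Erbb2 PT mean was 127 times that median in Her2 and 4.16 times in C3Tag, 3.09 times in BALB, 3.26 times in SEAGN and 2.09 times in AKR-named. On this scale Her2 was 30.4-fold above C3Tag, 41.0-fold above BALB, 38.9-fold above SEAGN and 60.7-fold above AKR-named in PTs. By share of the summed PT means, the fold above C3Tag was 47.0. In Lung mets the same folds were 38.5, 42.7, 54.0 and 72.1. Few genes stood further above the other models in Her2 PTs, namely 47 of 17109 against C3Tag, 11 of 12955 against BALB, 13 of 12993 against SEAGN and 10 of 16839 against AKR-named. The transgene of this model is rat neu, and reads of the transgene and of mouse Erbb2 cannot be told apart in a count per gene. The Erbb2 level serves here as a check of the model's label.

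The genes beside Erbb2 on chromosome 11 did not share its excess. Against C3Tag, the 8 neighbors present in both tables stood at a median of 0.890 times their relative PT level there, with a range of 0.189 to 6.04. Against BALB the 7 shared neighbors had a median of 0.744 and a range of 0.255 to 3.03. Against SEAGN the 7 had a median of 0.856 and a range of 0.222 to 2.77, and against AKR-named the 8 had a median of 0.965 and a range of 0.871 to 2.11. Mien1, the gene next to Erbb2, gave the upper end against C3Tag, BALB and SEAGN, but its relative level in Her2 was 0.949 times that in AKR-named. Grb7, an adaptor that binds Erbb2 and lies beyond Mien1, was at 1.21 times the C3Tag level and 1.55 times the AKR-named level. Ppp1r1b, a phosphatase inhibitor gene of this stretch, was at least 2-fold lower in Lung mets in 2 of 5 tables, with means of 44.5 and 17.8 in BALB and 58.1 and 20.9 in SEAGN. Its ratio was 0.536 in Her2, 1.02 in C3Tag and 1.90 in AKR-named, so that the tables did not share a direction.

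**Figure D2:**
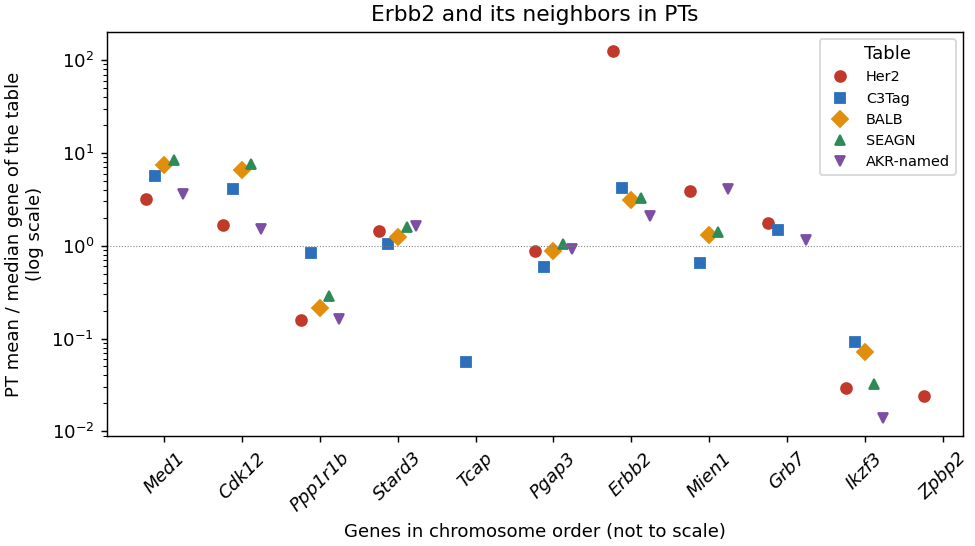
PT mean of Erbb2 and of the genes around it in chromosome order, each divided by the median gene of its table (12317 genes found in every table; log scale, gene spacing not to scale). Erbb2 lies at 127 in Her2 and at 2.09 to 4.16 in the other models, while the neighbors in Her2 have a median of 0.744 to 0.965 times their level in the other models.

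Erbb3, which pairs with Erbb2, was among the more abundant genes in every table, with PT percentiles from 92.1% to 98.1%. In Her2 its mean was 9766 in PTs and 8642 in Lung mets (ratio 0.885), and in C3Tag 4205 and 4132 (ratio 0.983). In BALB the means were 1541 and 1576 (ratio 1.02), and in SEAGN 1227 and 1339 (ratio 1.09). AKR-named stood apart with 3658 in PTs and 2264 in Lung mets, a ratio of 0.619, and 4.51% of its genes had a lower ratio. Relative to the median gene, the PT mean of Erbb3 was 12.4 in Her2, 5.87 in C3Tag, 7.32 in BALB, 6.14 in SEAGN and 4.61 in AKR-named, so that Her2 was highest here too, by far less than for Erbb2.

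Egfr had a mean of 3556 in PTs and 3754 in Lung mets in Her2 (ratio 1.06). In C3Tag it had 2237 and 1646, the lowest ratio of the 5 models at 0.736. The means were 1230 and 1074 in BALB (ratio 0.873), 1458 and 1395 in SEAGN (ratio 0.957) and 3373 and 3362 in AKR-named (ratio 0.997). Its PT percentile stayed between 87.2% in C3Tag and 95.6% in SEAGN, a span of 8.42 points, against 21.9 points for Erbb2. Computed per kb of exon, the PT percentile of Egfr was lower, from 66.7% in C3Tag to 83.5% in SEAGN. For Erbb2 it then ran from 73.3% in AKR-named to 99.5% in Her2. Over the 12317 genes found in every table, those nearest to Egfr in PT percentile were Ergic1 at a Euclidean distance of 1.84 points over 5 tables, Ddr1, a collagen receptor kinase, at 2.96 and Nedd9, a scaffold of focal adhesions, at 3.34. For Erbb2 the nearest were Lama4, a laminin chain, at 7.31 points, Atp9a at 7.77 and Lamb2, another laminin chain, at 9.65, so that the 3 genes nearest to Erbb2 lay further off than the 3 nearest to Egfr.

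Erbb4 had no usable row in Her2, C3Tag or BALB and was not analysed there. In SEAGN its mean was 122 in PTs and 11.0 in Lung mets, a ratio of 0.0907. Only 0.0807% of the genes of that table had a lower ratio. In AKR-named it was 134 in PTs and 43.3 in Lung mets, a ratio of 0.323, with 0.415% of genes lower. Both entries were past 2-fold in the lower direction, where the backgrounds were 3.22% and 1.73%. PT percentiles were 49.9% in SEAGN and 32.9% in AKR-named.

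Per kb of exon, a rough scale for comparing genes of 1 table, the receptor order in Her2 PTs was Erbb2 at 19111, Erbb3 at 1623 and Egfr at 314. Lengths were merged GENCODE M21 exons matched by gene name, also for BALB and SEAGN with their BALB/cJ gene identifiers. In C3Tag it was Erbb3 at 699, Erbb2 at 572 and Egfr at 197, and in BALB Erbb3 at 256, Erbb2 at 125 and Egfr at 109. In SEAGN Erbb3 stood at 204, Egfr at 129, Erbb2 at 125 and Erbb4 at 9.85. In AKR-named Erbb3 stood at 608, Erbb2 at 318, Egfr at 298 and Erbb4 at 10.8. Erbb3 therefore led in every table but Her2. Whether neighbors in these orders, such as Egfr and Erbb2 in SEAGN, differ beyond their spread cannot be said without values of single samples.

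**Figure D3:**
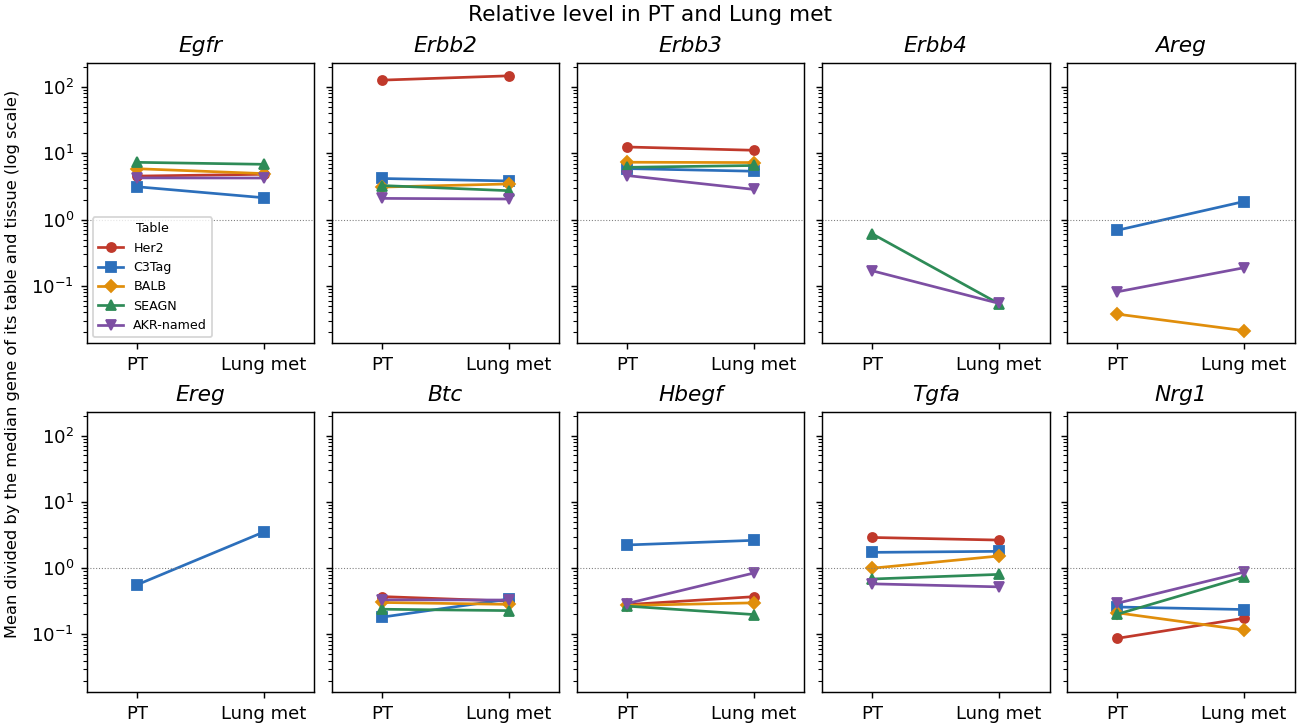
Mean of each gene in PT and in Lung met, divided by the median of the 12317 genes found in every table for the same table and tissue (log scale, dotted line at 1). Erbb2 in Her2 lies at 127 in PT and 147 in Lung met, Erbb4 drops to about 0.054 in both tables that hold it, and Areg and Ereg in C3Tag cross from below to above the median gene.

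Ereg, Areg and Btc lie side by side on chromosome 5, after Epgn, and all were at least 2-fold higher in Lung mets of C3Tag. Ereg, the ligand epiregulin, had a mean of 402 in PTs and 2708 in Lung mets, a ratio of 6.73 that exceeded that of 99.0% of genes. Ereg had no usable row in the other tables and was not analysed there. Areg, the ligand amphiregulin, had 494 in PTs and 1443 in Lung mets, a ratio of 2.92. Btc, betacellulin, had 131 and 262, a ratio of 2.01, which was just past 2-fold. Epgn, the ligand at the other end of this stretch, was at 25.5 and 24.3 (ratio 0.955). The background of genes at least 2-fold higher in C3Tag was 7.42%.

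The RefSeq promoters of Areg and Btc are shown because these neighboring genes had higher means together in C3Tag, and because Areg, but not Btc, was also higher in AKR-named. In BALB the Lung met mean was lower for both, with ratios of 0.583 for Areg and 0.968 for Btc. No promoter sequence was available for Ereg, their neighbor with the highest C3Tag ratio. Each promoter shown runs from 250 bases before the start site to 50 after it, 5′ to 3′, in GRCm38.p6, with the motif TGACGTCA in capitals. This palindrome is the cyclic AMP response element, bound by CREB family factors.
Areg promoter, chr5:91139349-91139648, plus strand: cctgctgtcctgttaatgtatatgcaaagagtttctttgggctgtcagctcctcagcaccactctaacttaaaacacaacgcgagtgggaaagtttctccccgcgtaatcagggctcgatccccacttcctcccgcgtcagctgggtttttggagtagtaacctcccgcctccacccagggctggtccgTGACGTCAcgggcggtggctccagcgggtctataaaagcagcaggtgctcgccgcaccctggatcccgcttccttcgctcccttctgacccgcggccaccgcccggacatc
Btc promoter, chr5:91402945-91403244, minus strand: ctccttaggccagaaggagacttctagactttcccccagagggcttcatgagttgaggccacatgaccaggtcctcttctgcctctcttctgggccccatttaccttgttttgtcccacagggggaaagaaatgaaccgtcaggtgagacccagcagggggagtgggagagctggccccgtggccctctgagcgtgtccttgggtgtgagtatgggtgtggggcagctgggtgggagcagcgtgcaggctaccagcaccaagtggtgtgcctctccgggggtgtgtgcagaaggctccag

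Areg held the motif once, 61 bases before its start site, and the Btc window held no copy. It reads the same on both strands, and it was the only motif searched. Of the 6 members with an entry in the promoter table, 1 held it, and so did 588 of all 32851 promoters (1.79%). A match is a description of these letters and not a sign of binding.

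Areg outside C3Tag was low in PTs. In AKR-named its mean was 64.6 in PTs and 149 in Lung mets, a ratio of 2.31, with a PT percentile of 25.6%. In BALB it was 7.89 and 4.60, a ratio of 0.583 between means near the bottom of the table (PT percentile 8.19%). Areg had no usable row in Her2 or SEAGN. The direction therefore differed between the 3 tables that held it, with a PT percentile of 56.2% in C3Tag as the highest.

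Btc was even between tissues outside C3Tag. Its means were 293 and 248 in Her2 (ratio 0.846), 63.9 and 61.8 in BALB (0.968), 48.0 and 46.9 in SEAGN (0.977) and 265 and 262 in AKR-named (0.992). The PT percentile ranged only from 32.9% to 43.3%.

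Hbegf, a heparin-binding ligand of Egfr and Erbb4, had a mean of 232 in PTs and 671 in Lung mets of AKR-named, a ratio of 2.89. Elsewhere its ratio of these means stayed within 2-fold. The means were 222 and 289 in Her2 (ratio 1.31), 1602 and 2026 in C3Tag (1.26), 57.6 and 65.2 in BALB (1.13) and 53.4 and 40.9 in SEAGN (0.765). C3Tag stood apart in level: the PT percentile was 81.0% there and 34.5% to 39.4% in the other 4 tables, and the relative PT level in Her2 was 0.126 times that in C3Tag.

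Tgfa, an Egfr ligand, was within 2-fold in every model. Its means were 2280 and 2066 in Her2 (ratio 0.906), 1238 and 1383 in C3Tag (1.12), 210 and 332 in BALB (1.58), 137 and 165 in SEAGN (1.20) and 460 and 415 in AKR-named (0.901). It was the ligand with the highest PT percentile in Her2, at 85.1%, against 75.8% in C3Tag, 60.5% in BALB, 52.4% in SEAGN and 49.6% in AKR-named. Relative to the median gene, its PT level in Her2 was 1.68 times that in C3Tag, 2.91 times that in BALB, 4.23 times that in SEAGN and 5.00 times that in AKR-named.

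Nrg1, neuregulin 1, the ligand of Erbb3 and Erbb4, spanned the widest range of ratios among the genes present in every table. In SEAGN its mean was 40.4 in PTs and 151 in Lung mets, a ratio of 3.73 that exceeded that of 99.1% of genes. In AKR-named it was 235 and 691, a ratio of 2.95. Her2 had 68.6 and 137, a ratio of 1.99, just inside the 2-fold line. In C3Tag the means were 186 and 183 (ratio 0.987), and in BALB 44.6 and 25.3 (ratio 0.568). BALB and SEAGN, both PyMT-F1 tables with BALB/cJ gene identifiers, thus held opposite directions for this gene, a difference that was not tested. In both tables with a usable Erbb4 row, the Nrg1 mean was higher and the Erbb4 mean lower in Lung mets. A link between these 2 genes was not tested.

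Per kb of exon in C3Tag PTs, Areg stood at 407, Hbegf at 331, Tgfa at 191, Ereg at 97.5, Btc at 28.9 and Nrg1 at 18.0. In Lung mets of the same model Areg stood at 1187, Ereg at 656, Hbegf at 419, Tgfa at 213, Btc at 58.1 and Nrg1 at 17.7, so that Ereg moved from the fourth to the second place. In the other 4 tables Tgfa was the first ligand in PTs, at 351 in Her2, 32.4 in BALB, 21.1 in SEAGN and 70.9 in AKR-named.

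The other ligands of the family were read from a list. Egf, the founding ligand, was at least 2-fold lower in Lung mets of 3 tables. Its means were 119 and 39.8 in BALB (ratio 0.335), 89.3 and 43.4 in SEAGN (0.486) and 119 and 29.3 in AKR-named (0.246), against 1132 and 674 in Her2 (0.596) and 58.7 and 48.8 in C3Tag (0.831). Epgn had a ratio of 2.14 in BALB and 0.481 in SEAGN, from means between 4.08 and 9.72. Nrg2 stayed between 0.699 and 1.45 times its PT mean. Nrg4 stayed between 0.705 and 1.23 times its PT mean in the 4 tables that held it.

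Downstream and upstream of the receptors, few genes passed 2-fold. Of the 4 genes of ligand release (Adam10, Adam17, Rhbdf1 and Rhbdf2), 0 passed in any table, and their ratios lay between 0.760 and 1.56. Of the 7 adaptors and Ras activators, 1 passed, Shc1 in C3Tag, at 2741 in PTs and 5483 in Lung mets. Of the 8 receptor negative regulators, 1 passed, Errfi1, an inhibitor of Egfr and Erbb2 kinases, in C3Tag, at 4224 and 9333. Of all genes in C3Tag, 7.42% were at least 2-fold higher. Lrig3 came nearest to 2-fold lower, with ratios of 0.544 in C3Tag and 0.525 in AKR-named.

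Among the 15 ERK pathway response genes, 3 passed 2-fold higher in C3Tag and 0 passed in any other table or in the lower direction. The share of all genes at least 2-fold higher in C3Tag was 7.42%, and the difference from it was not tested. Cyclin D1 (Ccnd1) had 2543 in PTs and 8743 in Lung mets, a ratio of 3.44. Fosl1, an AP-1 subunit, had 161 and 561, a ratio of 3.48. Spry4, a feedback inhibitor of Ras signaling, had 352 and 1029, a ratio of 2.92. Egr1, an immediate early gene of the same list, had a ratio of 0.565 there. The median log2 ratio of the list was 0.30 in C3Tag against 0.01 over all genes, -0.17 in Her2, 0.17 in BALB, -0.11 in SEAGN and 0.25 in AKR-named. In Her2, 4 of the 14 genes found had the higher mean in Lung mets. Apart from Egf and Ppp1r1b, the genes of these lists were named after their values were seen.

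Markers of several other cell types also differed between Lung mets and PTs. Summed luminal mammary epithelium markers had Lung met over PT ratios of 0.975 in Her2, 0.992 in C3Tag, 1.13 in BALB and 1.09 in SEAGN. In AKR-named, where 9 of the 10 markers were found, the ratio was 1.02. Abundant genes such as Epcam carried these sums. Past 2-fold were Krt19, which went from 72.3 to 1014 in Her2 and from 1370 to 3215 in BALB, and Esr1, which went from 264 to 115 in C3Tag. Alveolar type 1 markers, from the lung, were at least 2-fold higher in Lung mets for 5 of 7 in Her2, 7 of 7 in C3Tag, 4 of 7 in BALB, 5 of 7 in SEAGN and 6 of 7 in AKR-named. Ager, their defining marker, went from 62.5 to 1847 in Her2, from 80.4 to 2166 in C3Tag, from 17.6 to 290 in BALB, from 16.7 to 579.8 in SEAGN and from 214 to 9532 in AKR-named. The summed level of this list went from 3414 to 14780 in C3Tag, from 2547 to 5665 in SEAGN and from 15267 to 33059 in AKR-named, but from 59037 to 58150 in Her2 and from 3801 to 3369 in BALB. In these last tables most of the PT sum was Aqp5 alone, with 57616 in Her2 and 3463 in BALB.

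Alveolar type 2 markers went from a sum of 7481 to 68288 in C3Tag, 9.13 times, and 1.64 times in Her2, 2.83 times in BALB, 4.28 times in SEAGN and 4.13 times in AKR-named. Of the 8 markers listed, 5 were found in each table, where only genes above 0 in both tissues were kept. The PT means of Lamp3 among them ranged from 3.12 in BALB to 140 in AKR-named. Summed endothelium markers were 2.89 times in C3Tag and 3.67 times in AKR-named, against 1.64, 1.56 and 1.66 times in Her2, BALB and SEAGN. Neutrophil markers were 8.75 times in C3Tag and 12.5 times in AKR-named, against 2.58, 2.72 and 3.16 times. The 2 tables with the most ligands past 2-fold were thus also those with the highest ratios of endothelium and neutrophil markers. Summed fibroblast markers, in which collagens weigh most, were 0.439 times in Her2, 0.911 in C3Tag, 0.311 in BALB, 0.195 in SEAGN and 0.390 in AKR-named. At least 2-fold lower were 7 of 8 in Her2, 2 of 8 in C3Tag, 6 of 8 in BALB, 7 of 8 in SEAGN and 7 of 8 in AKR-named. Pdgfra of this list had the higher mean in Lung mets of all 5 tables, with ratios of 1.36 to 1.92, and in C3Tag so did Dcn at 1.68. Summed skeletal muscle markers, of which 1 to 3 of 4 were found, were 0.0516 times in Her2, 0.0372 in C3Tag, 0.0173 in BALB and 0.105 in SEAGN, but 2.36 times in AKR-named. The AKR-named value rests on low means, with a PT sum of 16.7 against 271 in Her2 and 1012 in C3Tag. Only Acta1 of this list was found in BALB and SEAGN. Airway epithelium markers, of which 1 or 2 of 5 were found, summed to 7.17 times in Her2, 2.98 in C3Tag, 1.84 in BALB, 5.93 in SEAGN and 3.93 in AKR-named. B cell markers were found only in C3Tag, at 2.63 times, and AKR-named, at 7.57 times. The adipocyte marker Fabp4, the only one found of its list, had ratios of 0.768 in Her2, 0.665 in C3Tag, 0.151 in SEAGN and 0.708 in AKR-named. T cell markers summed to ratios from 0.848 in C3Tag to 1.70 in AKR-named. The part of these cell types in the ligand, Egf and Erbb4 differences was not tested.

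**Figure D4:**
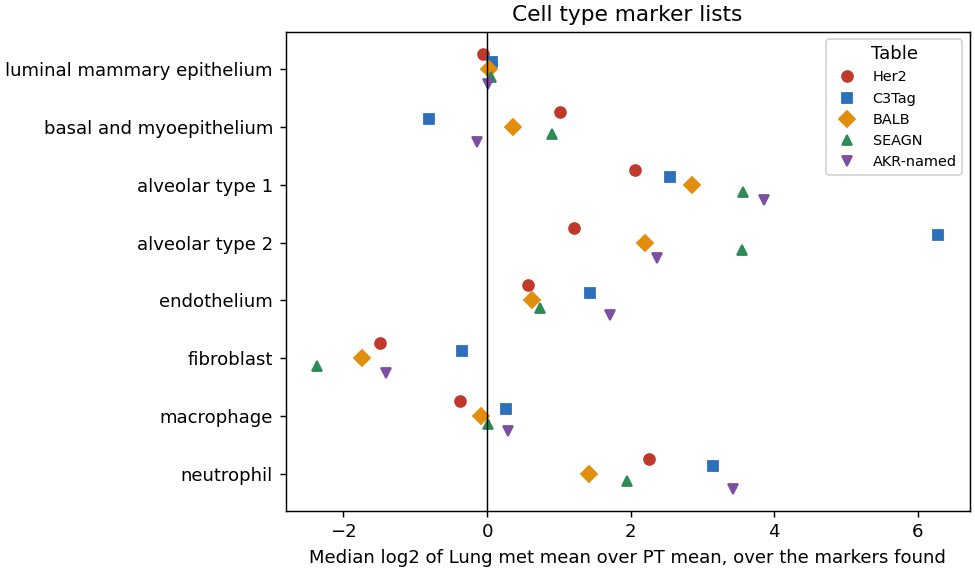
Median log2 of the Lung met mean over the PT mean for the markers found of each cell type (horizontal axis), 1 point per table. Luminal markers lie near 0, fibroblast markers lie below 0 in all 5 tables, and alveolar, endothelium and neutrophil markers lie above 0 in all 5, with C3Tag highest for alveolar type 2 at 6.29.

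Basal and myoepithelial markers gave no common direction, with summed ratios of 1.43 in Her2, 0.724 in C3Tag, 1.67 in BALB, 1.78 in SEAGN and 1.10 in AKR-named. In C3Tag the 5 markers found were split, with ratios of 0.352 for the basal keratin Krt14, 0.468 for Krt17, 0.569 for Trp63, 1.05 for Acta2 and 3.99 for Mylk. Macrophage markers summed to ratios from 0.724 in Her2 to 1.30 in AKR-named. The part of these cells was not tested either.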

How the data were processed

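Total RNA of PTs and Lung mets was sequenced. Per the labels, libraries were stranded and depleted of ribosomal RNA, while the methods name an mRNA kit. The submitters' processing notes name STAR 2.7.8a, DESeq2 and mm39, while the methods name Partek Flow with mm9 or mm10, gene specific analysis for driver models and DESeq2 for PyMT-F1 models. How counts were normalized is not given in the sources used here. The deposited values used were the authors' least-squares means of normalized gene signal per tissue, 1 table per model. P-value, false discovery rate, ratio and fold change columns of the authors were not used, which left out the Myc table. Number and depth of the samples behind each mean are not in the tables.

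With Python 3.11.15, pandas 2.3.3 and numpy 2.4.6, log2 of the Lung met mean over the PT mean was computed with no pseudocount for genes above 0 in both, and 2-fold counted as past. Percentiles, levels relative to the median gene, and means per kb of merged exon (GENCODE M21) were computed within tables. No test was possible. Scripts were tested on simulated data. Members and lists were chosen with earlier results of these data known. Every member was named, and of the lists those genes past 2-fold in 1 direction in at least 2 tables, with exceptions stated.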

Additional observations from a re-analysis of the deposited data

How the results depend on the processing

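No gene past 2-fold changed sign under the alternatives run. Among log2 ratios within 2-fold, 2 changed sign, both when centred on summed luminal markers: Erbb3 in BALB went from 0.03 to -0.15 and Hbegf in BALB from 0.18 to -0.0011, which bears on the counts of entries with the higher Lung met mean. Of the recomputed log2 ratios, 199 kept their side of 2-fold and 6 did not, and of the percentiles 85 moved by less than 5 points and 72 by more. Counts past 2-fold followed the fold chosen: at 1.5-fold 1 gene passed in Her2 and 3 in BALB, and at 3-fold 1 passed in C3Tag and 1 in AKR-named. The other counts stayed within 1.5 times, among them 2 in place of 3 in C3Tag with a pseudocount of 10 or centring on all genes, and 5 in place of 4 in AKR-named at 1.5-fold. The PT percentile of Erbb2 in AKR-named was 72.5 over genes of every table, because genes missing from a table were left out. Btc in C3Tag had a log2 ratio of 1.00 with a pseudocount of 1 and 0.95 with 10, under the 2-fold line both times, and 0.94 when centred on luminal markers. Nrg1 in Her2 passed at 1.06 when centred on luminal markers and at 1.03 on their sum (chosen after seeing the data). By share of summed means, also chosen after seeing the data, Erbb2 in Her2 PTs was 47.0-fold above C3Tag. On that scale Egfr, Erbb2, Erbb3 and Nrg1 in C3Tag were higher in Lung mets, while their means were lower there. The summed means of C3Tag were 4.09e+07 in PTs and 2.34e+07 in Lung mets. This scale was not among the recomputed log2 ratios. The cause was not tested. Percentiles moved by over 5 points for 28 of 41 entries per kb of exon. No paired analysis was possible because the tables hold pooled means and no value of a single sample, and for the same reason no replicate could be left out. Depth could not be weighed.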
